A study of Mus musculus with 1545 samples.

Results

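Cadherins and protocadherins were examined in single neurons of the mouse spinal cord dorsal horn. The genes were taken by symbol, as every Cdh or Pcdh gene with a number and every clustered Pcdha, Pcdhb or Pcdhg gene in the table of molecule counts. Of the 24378 genes in that table, 92 met this rule, and the 57 with at least 50 molecules (UMI) over all cells are described. Pcdha10, with 58 molecules, lay just inside this limit and Pcdhb13, with 48, just outside. Other genes of the superfamily, such as Pcdh11x, the Fat genes and a merged row, Pcdha4-g, fell outside the symbol rule and were not counted as members.

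Cadherins are calcium-dependent adhesion molecules of the cell surface, and their classical members bind like to like and are tied to the actin cytoskeleton through catenins. In the nervous system, type I and type II cadherins and the delta protocadherins are known for their combinatorial expression in neuron groups and for roles in synapse formation, dendrite shape and axon sorting. The clustered alpha, beta and gamma protocadherins are encoded in tandem arrays, from which each neuron is known to choose a few promoters. They act in self-recognition, so that branches of the same neuron avoid each other.

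Each of the 1545 samples was 1 neuron, and its GEO labels gave line, age, sex, cluster and cell type. The wild type was C57bl6 (637 cells, 18 to 28 days old). The vGat-cre-tdTomato line (537 cells, 17 to 24 days) carries a Cre driven by the vesicular GABA transporter gene and a red reporter, which by its nature also marks cells that expressed Cre only earlier. The vGlut2-eGFP line (371 cells, 23 to 26 days) carries a green reporter under control of the vesicular glutamate transporter 2 gene. The sources used here do not say how marked cells were picked. All mice were untreated as far as the labels say. Since individual mice are not identified, counts were added up over cells that shared line, labelled sex and labelled age, which gave 17 animal sets, 10 of wild type, 3 of the vGat line and 4 of the vGlut2 line, and every test compared sets. The sets may pool mice, and the p-values measure the spread between sets.

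A cell held a median of 8808 UMIs (3012 to 32886), and the sets held between 58614 and 2610563. The capture run of a cell was read from the number that opens its title and is not itself a label. The protocol text has droplet-kit wording, so this reading of the titles is an assumption. None of the 82 capture runs so defined held cells of more than 1 line. Effects of line and of run therefore cannot be told apart wherever lines are compared. Neuronal markers (Snap25, Rbfox3, Tubb3, Syt1 and Nefl) summed to 2058 to 5312 CPM (molecules scaled to a library of 1000000) in every set. Markers of myelinating oligodendrocytes were also abundant. Their 10 genes, Mbp and Mog among them, summed to between 18803 and 51045.5 CPM in the wild-type sets and to between 1481 and 4421 CPM in the vGat sets. In the vGlut2 sets they reached 78.2 CPM at 23 days, 86.1 at 24, 2125 at 25 and 39988 at 26 days. The 26-day vGlut2 set thus stands apart from its line. It held 17 cells, 5 of them annotated as inhibitory. Calls of members and of related genes that change without it are also given without it. The sex label was not used as a factor, because an Xist molecule was present in 58.5% of the cells labelled male.

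The 92 genes together held 31612 molecules, 0.213% of all molecules. Molecule counts tag 1 end of each RNA and are not scaled by gene length, so counts of different genes are set side by side as molecules. The total was led by few genes. Pcdh9, a delta-1 protocadherin, held 4952 molecules, and Pcdh17, a delta-2 protocadherin, held 3919. Pcdhgb4 held 2518, Pcdha5 held 2399, Pcdh7 held 2270, Cdh2 (N-cadherin) held 1968 and Cdh8, a type II cadherin, held 1838. These 7 genes made up 62.8% of the member molecules.

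**Figure D1:**
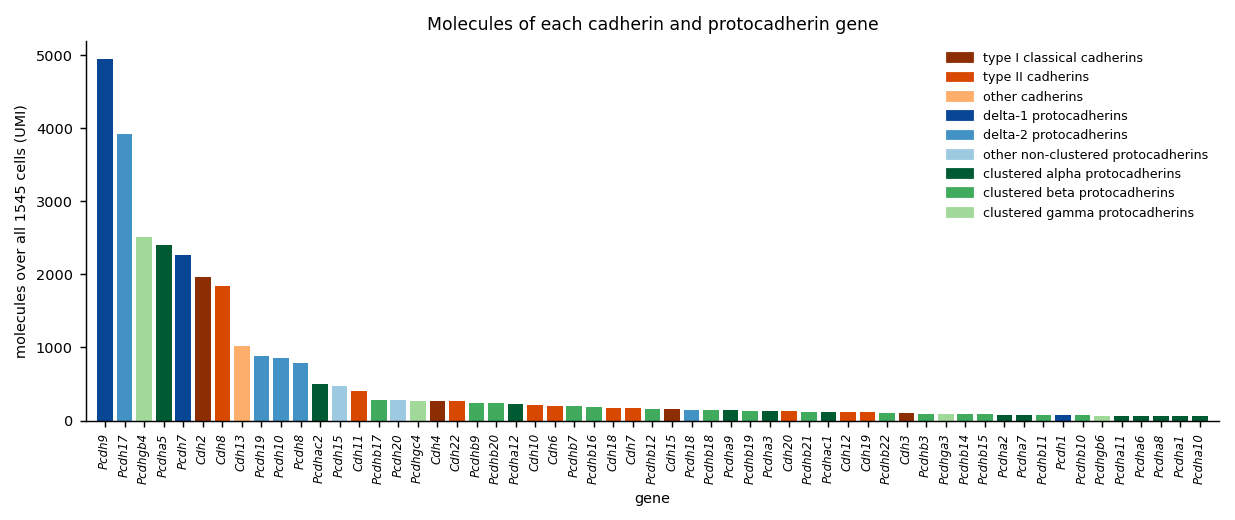
Molecules (UMI) summed over all 1545 cells for each of the 57 described genes, in falling order and coloured by subfamily. The axis is linear and starts at 0. Pcdh9 with 4952 molecules and Pcdh17 with 3919 lead, and Pcdhb17 is the highest of the clustered beta genes.

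By subfamily, the 3 delta-1 protocadherins held 23.1% of the member molecules and the 5 delta-2 protocadherins 20.9%. The 13 type II cadherins held 11.7%, with 10 of them at 50 molecules or more. The 5 type I cadherins held 7.87%, and 4 of those were described. Among the clustered genes, the 14 of the alpha cluster held 12.6% (13 described), the 22 of the gamma cluster 10.4% (4 described) and the 22 of the beta cluster 7.67% (15 described). Cdh13, T-cadherin, was the only described member of the 5 other cadherins, and Pcdh15 and Pcdh20 were the described members of the 3 remaining non-clustered protocadherins.

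The split of molecules among alpha and gamma genes is uncertain. In the GENCODE M21 annotation, 56 of the 57 described genes were found, and the 12 alpha genes among them shared between 28.5% and 54.9% of their exonic bases with other members on the same strand. The 4 gamma genes shared between 37.9% and 45.2%. Transcripts of both clusters are known to carry constant exons at their 3' end. Pcdha5 took 60.1% of the alpha molecules and Pcdhgb4 76.4% of the gamma molecules. In wild-type excitatory sets the share of Pcdha5 ran from 60.5% to 84%, and in the vGlut2 sets from 35.7% to 60%. In inhibitory sets it ran from 54.4% to 79.6% in wild type and from 54.3% to 58.7% in the vGat line, which overlap. The share of Pcdhgb4 also overlapped, at 73.97% to 89.3% in wild-type excitatory and 58.3% to 88% in vGlut2 sets, and at 69.4% to 88.6% in wild-type inhibitory and 70.8% to 78.4% in vGat sets. How reads of shared exons were assigned, and whether strand was used, the sources used here do not say, so values of Pcdha5 and Pcdhgb4 may hold molecules of other genes of their cluster. Of the 15 beta genes, which have single exons as a rule, 2 shared bases with other members. Genes on the opposite strand overlapped 63.5% of the exonic bases of Pcdhb12, 33.3% of Pcdha11 and 21.1% of Pcdh7. No described cadherin shared exonic bases with another member.

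The reporter lines were compared first, since they group cells by the genotype of the mouse and not by annotation. Between the vGat line (3 sets) and the vGlut2 line (4 sets), 47 of the 57 genes passed the filter on low counts. With a threshold of 0.05 on the adjusted p, 8 of these were higher in vGat cells and 2 lower (edgeR quasi-likelihood test, Benjamini-Hochberg over all 10598 genes tested). Over all genes tested, 4.32% were higher and 4.53% lower, and the 8 are 17.0% of the members tested and the 2 are 4.26%. Of the 8, Cdh7, Cdh18 and Cdh3 passed the filter only through the vGat sets, where they are high, which leaves 5. The median log2 fold change was 0.48 over the members and -0.01 over all genes, with 34 of 47 members positive. Many positive members, Pcdhac1 and Pcdhb18 among them, needed the vGat sets to pass the filter. Some negative ones, such as Pcdhgb6, needed the vGlut2 sets, so the sign count is a description. Both excitatory and inhibitory markers followed the lines. All 5 inhibitory markers were higher in the vGat line and the 3 excitatory markers tested, Slc17a6, Tlx3 and Prrxl1, were lower. None of the 10 oligodendrocyte genes was called, although their median log2 fold change was -1.94. Without the 26-day vGlut2 set 4 of them were higher in the vGat line, with a median of 1.08. The endothelial gene tested, Itm2a, was lower in the vGat line (-2.07), and endothelial markers summed to between 20.6 and 26.7 CPM in the vGat sets and between 82.3 and 251.4 CPM in the vGlut2 sets. The part of RNA from these cell types in the differences between lines was not tested.

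Among type I cadherins, Cdh2 and Cdh3 were higher in the vGat line. Cdh3, P-cadherin, was measured at 10.8, 13.0 and 14.7 CPM in the 17-, 18- and 24-day vGat sets, and at 0, 9.57, 1.02 and 0 CPM in the 23-, 24-, 25- and 26-day vGlut2 sets. The groups did not overlap, but the single vGlut2 value near the vGat range came from 1 molecule. Its log2 fold change was 3.35 (SE 0.66, adjusted p = 0.00305). With so few molecules in the vGlut2 line, Cdh3 passed the filter on low counts only through the vGat sets, so its call is a description. Pooled over cells, 73 molecules in the vGat line stood against 3 in the vGlut2 line, a ratio of 11.4 after scaling to library size, with a counting interval of 3.74 to 56.5.

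Cdh2, the most abundant classical cadherin here, reached 144.5, 170.8 and 172.5 CPM in the vGat sets and 69.5, 66.98, 96.1 and 87.996 CPM in the vGlut2 sets. Every vGat set was above every vGlut2 set, with a log2 fold change of 0.92 (SE 0.20, adjusted p = 0.00625). Cdh4, R-cadherin, showed a log2 fold change of -0.12 (SE 0.38, adjusted p = 0.914).

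Of the 9 type II cadherins tested, Cdh7 and Cdh18 were higher in the vGat line. Cdh7 (chromosome 1, 109982237 to 110145272, GRCm38) was at 16.5, 23.4 and 25.0 CPM in the vGat sets and at 4.34, 9.57, 2.05 and 0 CPM in the vGlut2 sets. Its log2 fold change was 2.94 (SE 0.49, adjusted p = 0.000838). Pooled over cells, with 7 molecules in the vGlut2 line, the ratio of molecules scaled to library size was 8.28 (counting interval 3.90 to 21.0). Cdh7, too, passed the filter through the vGat sets, where it is high. Cdh18 lay at 20.5, 18.4 and 20.6 CPM against 4.34, 9.57, 9.71 and 0 CPM, again without overlap, and it too passed the filter through the vGat sets. It was the weakest of the calls, with a log2 fold change of 1.29 (SE 0.39, adjusted p = 0.0495). Cdh22 and Cdh10 had log2 fold changes of -1.21 (adjusted p = 0.0598) and -1.21 (adjusted p = 0.0889), and neither passed.

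Cdh13, which lacks a cytoplasmic domain and is held in the membrane by a lipid anchor, was lower in the vGat line. It lay at 52.3, 74.3 and 69.7 CPM in the vGat sets and at 106.4, 76.5, 113.5 and 144.6 CPM in the vGlut2 sets. The groups did not overlap, though the highest vGat set and the lowest vGlut2 set nearly met. The log2 fold change was -0.82 (SE 0.22, adjusted p = 0.0258).

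Of the 5 delta-2 protocadherins, Pcdh8 and Pcdh19 were higher in the vGat line. Pcdh8, known in rat as arcadlin, a gene induced by neuronal activity, was at 62.6, 67.04 and 55.8 CPM against 30.4, 28.7, 25.6 and 44.0 CPM, with no overlap (log2 fold change 1.07, SE 0.23, adjusted p = 0.00538). Pcdh19, an X-linked gene linked to epilepsy in people, was at 59.7, 89.6 and 66.8 CPM against 41.3, 66.98, 37.3 and 37.7 CPM. The 24-day vGlut2 set, with 7 molecules, lay within the vGat range. The log2 fold change was 0.80 (SE 0.23, adjusted p = 0.0374). Xist stood at 1055, 0 and 0.734 CPM in the 17-, 18- and 24-day vGat sets and at 0, 0, 1830 and 1263 CPM in the vGlut2 sets, so its level differed between sets within each line, and its part in the values of X-linked Pcdh19 was not tested.

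Pcdh17 and Pcdh10 of the same subfamily did not pass. Pcdh17 was at 263.9, 363.1 and 314.2 CPM against 225.9, 239.2, 234.7 and 144.6 CPM (log2 fold change 0.51, SE 0.19, adjusted p = 0.131). Pcdh10 was at 48.4, 62.8 and 80.8 CPM against 56.5, 19.1, 46.5 and 62.9 CPM (0.34, SE 0.25, adjusted p = 0.497). The sets of Pcdh10 overlapped, and those of Pcdh17 did not. Pcdh18, the fifth gene of the subfamily, had the opposite sign (log2 fold change -1.07, SE 0.44, adjusted p = 0.172), at 8.53, 6.51 and 4.40 CPM against 23.9, 9.57, 10.2 and 12.6 CPM.

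The promoters of Pcdh8 and of its near relatives Pcdh10 and Pcdh17 are shown. Of these 3 delta-2 genes, only Pcdh8 was called between the lines, while all 3 were called in neuron types (below). Pcdh19, the other delta-2 gene called between the lines, is not shown. Each promoter is the stretch of 250 bases before the annotated start (RefSeq, build GRCm38.p6, 5' to 3' on the gene's strand). None of these bases lies within the RefSeq gene or its GENCODE exons. Capitals mark every match to CCAAT on either strand (ATTGG on the strand shown), the letters bound by the common factor NF-Y, and to CANNTG, the E-box letters bound by basic helix-loop-helix factors.
Pcdh8, chr14:79771313-79771562, minus strand: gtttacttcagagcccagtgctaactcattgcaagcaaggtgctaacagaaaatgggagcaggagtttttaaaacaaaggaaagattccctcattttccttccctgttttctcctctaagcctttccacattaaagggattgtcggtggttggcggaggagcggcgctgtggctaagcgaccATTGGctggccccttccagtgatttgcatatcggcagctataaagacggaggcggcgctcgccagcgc
Pcdh10, chr3:45378148-45378397, plus strand: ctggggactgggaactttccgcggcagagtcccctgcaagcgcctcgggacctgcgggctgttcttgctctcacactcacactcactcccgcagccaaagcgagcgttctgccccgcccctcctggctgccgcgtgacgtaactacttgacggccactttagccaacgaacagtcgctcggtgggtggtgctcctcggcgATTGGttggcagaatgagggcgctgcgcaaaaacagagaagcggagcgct
Pcdh17, chr14:84443313-84443562, plus strand: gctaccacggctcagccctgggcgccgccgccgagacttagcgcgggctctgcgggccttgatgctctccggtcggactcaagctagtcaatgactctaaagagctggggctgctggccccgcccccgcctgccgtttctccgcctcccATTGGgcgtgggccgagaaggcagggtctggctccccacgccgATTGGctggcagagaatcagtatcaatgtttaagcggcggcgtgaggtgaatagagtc

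Pcdh8 and Pcdh10 held 1 CCAAT match each and Pcdh17 held 2, and the motifs shared no base. No promoter of the 3 held CANNTG. Over all 32851 promoter entries of the same length, 33.8% held CCAAT on either strand and 66.2% held CANNTG. Of 25 entries for 22 of the 92 members, 15 held CCAAT and 13 held CANNTG. The GC content was 51.2% for Pcdh8, 63.2% for Pcdh10 and 64.8% for Pcdh17, beside a median of 52.4% over all entries.

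Among the clustered genes, 2 of the 7 alpha genes tested, Pcdha5 and Pcdhac2, were higher in the vGat line, and all 7 had a positive log2 fold change (median 0.98). Of the 7, Pcdha2, Pcdha3, Pcdha9 and Pcdhac1 needed the vGat sets to pass the filter on low counts, so this sign count is a description. Pcdha5 was at 197.4, 224.5 and 198.2 CPM against 89.04, 105.2, 120 and 50.3 CPM, with no overlap (log2 fold change 1.06, SE 0.21, adjusted p = 0.00361). Pcdhac2, a C-type alpha gene, was at 45.5, 61.3 and 50.7 CPM against 34.7, 47.8, 18.4 and 25.1 CPM (1.06, SE 0.28, adjusted p = 0.0226), and its 24-day vGlut2 set lay within the vGat range. None of the 14 beta genes tested passed, though 12 were positive (median 0.43), and none of the 3 gamma genes passed. Of the positive beta genes, Pcdhb7, Pcdhb11, Pcdhb12, Pcdhb14, Pcdhb15, Pcdhb16, Pcdhb18, Pcdhb21 and Pcdhb22 likewise needed the vGat sets to pass the filter. Pcdhgb4 was at 189.3 ± 16.3 CPM in the vGat sets (SD, n = 3) and at 178.95 ± 18.4 CPM in the vGlut2 sets (SD, n = 4), with overlapping ranges (log2 fold change 0.06, SE 0.18, adjusted p = 0.919 by edgeR), so the gamma leader differed by less than the spread between sets.

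Pcdh15, known for the tip links of inner-ear hair cells, was lower in the vGat line, at 23.3, 23.7 and 29.4 CPM against 39.1, 76.5, 47.04 and 25.1 CPM (log2 fold change -0.86, SE 0.25, adjusted p = 0.0396). The 26-day vGlut2 set lay within the vGat range. Of the 2 delta-1 genes tested, Pcdh7 was at 143.9, 176.97 and 179.1 CPM against 134.7, 66.98, 105.8 and 69.1 CPM (0.65, SE 0.22, adjusted p = 0.0814). Pcdh9 was at 179.2, 226.8 and 230 CPM against 86.9, 47.8, 80.3 and 307.99 CPM (0.75, SE 0.40, adjusted p = 0.303), with the 26-day set above all others. Without that set, Pcdh9 was higher in the vGat line (1.40, SE 0.19, adjusted p = 6.97e-07 by edgeR).

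**Figure D2:**
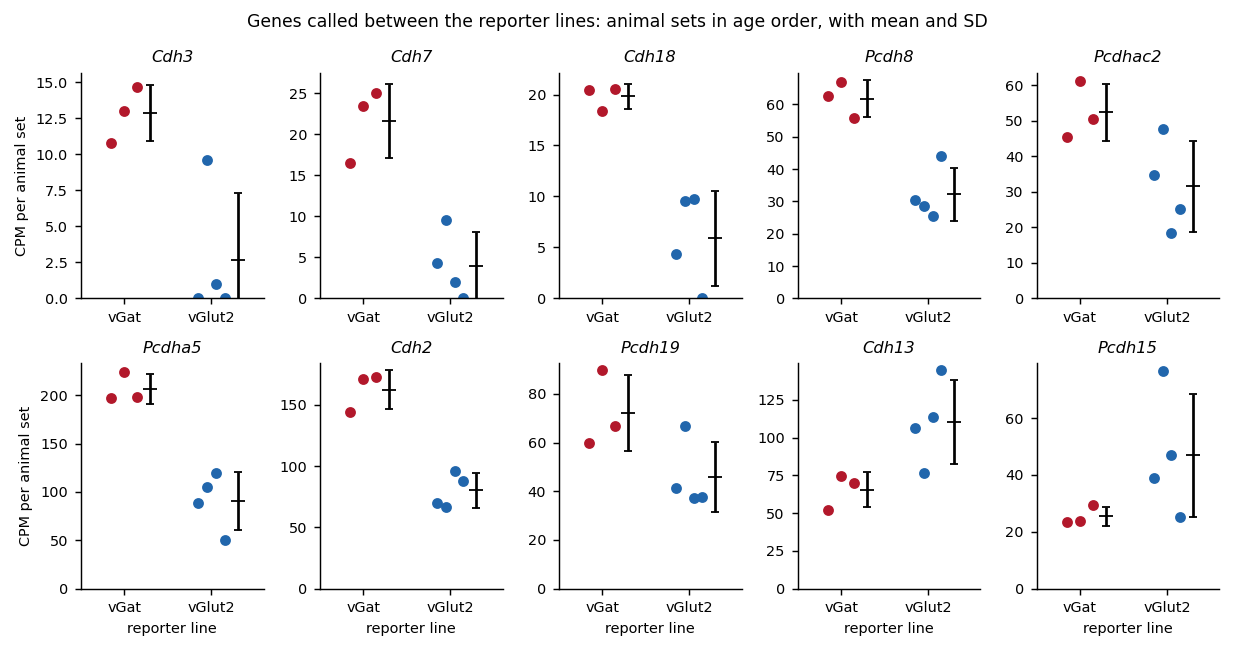
CPM of the 10 genes called between the reporter lines, 1 panel per gene, with 1 point per animal set in age order (17, 18 and 24 days for vGat, 23 to 26 days for vGlut2) and the mean with SD beside them. The linear axes start at 0 and differ between panels. The sets do not overlap for Cdh3, Cdh7, Cdh18, Cdh2, Pcdh8, Pcdha5 and Cdh13, and do overlap for Pcdh19, Pcdhac2 and Pcdh15. The calls rest on these same values, so overlap is a description. Uncalled members such as Pcdh17, Pcdh18 and Pcdh7 did not overlap either, and the share over all genes is not given.

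Partner genes were compared by lists, beside 4.32% of all genes higher and 4.53% lower. Of 7 catenins tested, Ctnnd1 (p120-catenin, which binds cadherin tails below the membrane) was higher in the vGat line (log2 fold change 0.88). In the wider superfamily, 3 of 12 genes were higher, Clstn3 (calsyntenin-3, 0.99), Pcdh11x (1.302) and Fat3 (1.80), a giant cadherin that shapes amacrine cell dendrites in the mouse retina. Cdhr1 (-3.62), known as a photoreceptor cadherin, and Fat4 (-1.41) were lower. None of 9 regulators of the clustered genes, such as Ctcf and cohesin subunits, none of 13 effectors and none of 6 proteases that cut cadherins passed in either direction. Without the 26-day vGlut2 set, these 6 calls held, and Pkp4 among the catenins (0.77) and Clstn2 (0.87) were higher besides.

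Age differed between the lines, with only the 24-day vGat set within the age range of the vGlut2 sets. With age as a covariate, 8 of the 10 calls were lost, with log2 fold changes of 1.12 for Cdh2, 0.93 for Pcdh8, 1.003 for Pcdha5, 0.96 for Pcdhac2, 1.38 for Cdh18, 0.70 for Pcdh19, -0.66 for Pcdh15 and -0.59 for Cdh13, and adjusted p from 0.0689 to 0.542. The other two were Cdh7 (log2 fold change 3.16, adjusted p = 0.0130) and Cdh3 (3.59, adjusted p = 0.0466), both of which passed the filter on low counts through the vGat sets. Under DESeq2, 5 were higher and 1 was lower. The count also depended on single sets. Counts under these other settings are given without the share of all genes called, so they show only how the calls move. Without the 26-day vGlut2 set, 11 were higher and 4 lower, in a fit that tested Pcdha8 and Pcdhga3 besides. All 10 calls held there, and Pcdh9, Cdh20 (2.06) and Pcdh7 (0.57) were higher besides, and Cdh10 (-1.35) and Cdh22 (-1.12) lower. In the fit with all sets, Cdh20 needed the vGat sets to pass the filter on low counts, and Cdh10 needed the vGlut2 sets. Each is high in the sets it needed, so these added calls are descriptions. Without the 25-day set, which held most of the 371 vGlut2 cells, 2 were higher, and without the 18- or the 24-day vGat set the count was 3 or 5. None was lower without the 17-, 18- or 24-day vGat set or the 23- or 25-day vGlut2 set. Of 13 settings each, the calls of Cdh18 and Pcdh15 were lost in 8, of Cdh13 in 7, of Pcdh19 in 6 and of Pcdhac2 in 5.

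In wild type, inhibitory and excitatory neurons came from the same sets and capture runs. The classes were taken from the authors' annotation, which was made from these same cells, so the comparison describes the classes and is no separate evidence for them. In the 7 sets that held 10 or more cells of both classes, 18 members passed the filter. Cdh8 was higher and Cdh13 lower in inhibitory cells, 1 member each way, beside 3.17% of all 8135 genes higher and 2.46% lower. The median log2 fold change of the 18 was 0.19, beside -0.01 over all genes.

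Cdh8, a type II cadherin that in mice is required at dorsal horn synapses that receive cold-sensing fibres, was at 145.1, 183.1, 139.4, 89.7, 158.3, 120 and 130 CPM in the inhibitory cells of the 22-day set labelled female and the 18-, 19-, 20-, 21-, 26- and 27-day sets labelled male. In the excitatory cells of the same sets it was at 85.9, 65.3, 55.6, 83.9, 55.7, 107.8 and 79.9 CPM. The inhibitory value was the higher in 7 of 7 sets, narrowly at 20 and 26 days, and the log2 fold change was 0.77 (SE 0.19, adjusted p = 0.0130). After every cell was thinned to 3000 molecules, a Cdh8 molecule was seen in 30.1% of inhibitory cells (exact 95% interval 24.1 to 36.7) and in 18.0% of excitatory cells (14.3 to 22.1), beside 55.7% and 35.4% before thinning. No cell group known to lack the gene was at hand for a background share. The call was lost without the 18-day set (adjusted p = 0.0501) or the 19-day set (0.0502), and with at least 20 cells of each class per set (0.311).

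Cdh13 was at 14.2, 22.0, 19.9, 41.3, 45.2, 42.8 and 38.4 CPM in inhibitory cells and at 27.5, 82.3, 49.04, 67.3, 57.7, 114.3 and 47.6 CPM in excitatory cells of these sets. It was the lower in inhibitory cells in 7 of 7 sets, the same direction as between the reporter lines, with a log2 fold change of -0.93 (SE 0.23, adjusted p = 0.0156). Thinned, a molecule was seen in 9.59% of inhibitory cells (interval 6.03 to 14.3) and 17.0% of excitatory cells (13.4 to 21.0). The call was lost without the 26-day set (adjusted p = 0.0683), without the set as a block (0.0509), with at least 20 cells per class (0.0952) and under DESeq2 (0.0622).

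**Figure D3:**
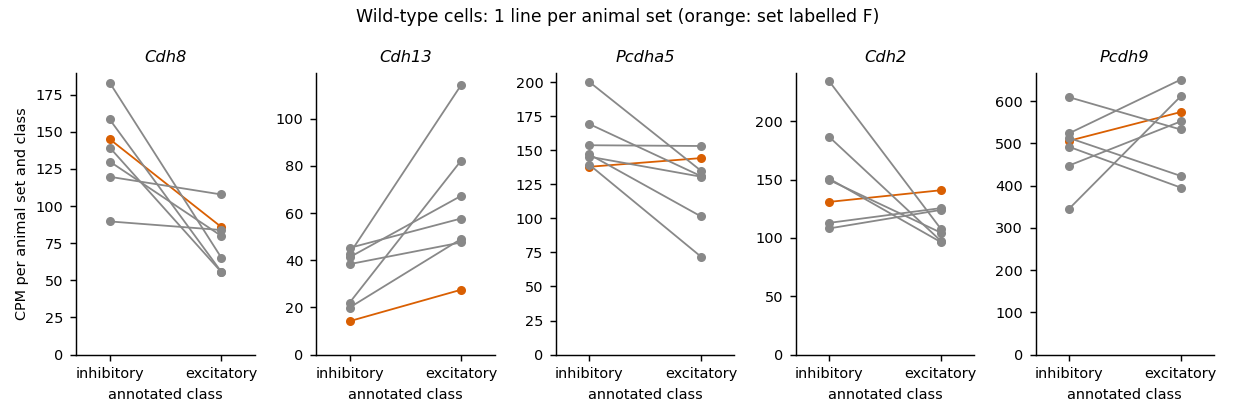
CPM of Cdh8, Cdh13, Pcdha5, Cdh2 and Pcdh9 in inhibitory and excitatory cells of 7 wild-type animal sets, 1 line per set, on linear axes from 0. All 7 lines fall from inhibitory to excitatory for Cdh8 and rise for Cdh13, while those of Pcdha5, Cdh2 and Pcdh9 go both ways.

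The other members did not pass between the wild-type classes, some with larger log2 fold changes and larger errors than the called genes. Pcdha5 had a log2 fold change of 0.34 (SE 0.15, adjusted p = 0.247), Pcdhac2 of 0.85 (SE 0.37, adjusted p = 0.245) and Cdh22 of -1.16 (SE 0.49, adjusted p = 0.228). Pcdh7 (-0.08), Pcdhgb4 (-0.04) and Pcdh10 (0.00) lay near 0. Of the related lists, Fat3 (1.42) was higher among 8 genes of the wider superfamily, and none of 7 catenins, 8 regulators, 12 effectors or 6 proteases passed. Oligodendrocyte genes leaned towards excitatory cells, with Mag (-0.57) and Mal (-0.57) called lower of 10 in inhibitory cells, and their part in the class differences was not tested.

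The class difference was then set against that of the reporter lines, which use other mice and other capture runs. Of 18 members tested in both, 12 had the same sign (66.7%), as did 65.7% of all 7977 genes tested in both. All 7 members called between the lines and tested in wild type had the same sign there, as did 92.4% of all 715 such genes. Cdh13 was the 1 of them called in both, beside 42.2% of all such genes. In the test of the difference itself, with inhibitory vGat cells, excitatory vGlut2 cells and both wild-type classes, none of 18 members passed in either direction (edgeR, and none under DESeq2), beside 0.0842% of 8316 genes higher and 0.204% lower. This test had no set as a block, so the pairing of the wild-type classes within sets was not used. At an unadjusted p under 0.05, the signed difference of inhibitory and excitatory cells was more positive in the reporter lines than in wild type for 5 of 18 members, beside 3.04% of all genes. These were Pcdha5 (0.79, SE 0.27), Pcdh7 (0.81, SE 0.30), Pcdh20 (1.48, SE 0.56), Pcdh9 (1.01, SE 0.39) and Cdh2 (0.59, SE 0.27). It was more negative for none, beside 3.13%. For Pcdh20, Pcdh9 and Pcdh7 the estimates lay on opposite sides of 0, though none passed. They were -0.75 (SE 0.38) between wild-type classes and 0.50 (SE 0.39) between the lines for Pcdh20, -0.16 (SE 0.13) and 0.75 (SE 0.40) for Pcdh9, and -0.08 (SE 0.16) and 0.65 (SE 0.22) for Pcdh7. Without the 26-day vGlut2 set, Pcdh9 passed (1.59, SE 0.28, adjusted p = 0.00172 by edgeR).

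Across the 30 neuron types of the authors' annotation, the members divided into genes spread over all types and genes concentrated in few. The types were assigned from these same cells, so levels by type are a description. In 1 of the types, labelled Gaba1, the 18 cells carry an excitatory cluster name, and it was left out of the tests by class and by type. Its 1 vGlut2 cell was part of the sums compared between the reporter lines. Pcdhgb4 varied least among the abundant genes, from 108.6 to 232.2 CPM, with its highest type 1.37 times the median type. Pcdh17 ran from 126.2 to 420 CPM (1.66 times) and Pcdh9 from 156.7 to 689 CPM (2.06 times). The types differ in their mice, and Pcdh9 differed between lines. Its highest type was Gaba1, with 17 of 18 cells from wild type, and its lowest Glut5, with 16 of 24 from the vGlut2 line, where it was at 304.1 CPM in wild-type and 85.9 CPM in vGlut2 cells.

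In each class, every type was compared with the mean of the others, with the set as a block. In these fits, 12 members were tested, 9 of them in all 29 types. Pcdh8 and Pcdh19 were tested in inhibitory types only, and Cdh22 in excitatory types only. Of their gene and type pairs, 22 were higher and 4 lower, 7.24% and 1.32%, beside 2.01% and 0.489% of all 115914 pairs. The calls lay mainly in Pcdh7, Cdh13, Pcdh8 and Cdh8.

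Cdh13 was highest in 2 of the 3 types with Npy in their names. It reached 381.1 CPM (95% counting interval 322.3 to 447.4) in Gaba7, named GABA_Npy_Crabp1, and 198.99 CPM in Gaba6, GABA_Npy_Qrfpr, beside a median of 66.4 CPM over types. In the 3 vGat sets with at least 5 Gaba7 cells, it was at 354.97, 502.1 and 280 CPM at 17, 18 and 24 days. The log2 fold changes against the other inhibitory types were 3.74 (SE 0.34) for Gaba7 and 2.88 (SE 0.34) for Gaba6, and 1.81 (SE 0.41) for Gaba13, GABA_Cplx1_Sst. The remaining Npy type, Gaba5, was at 69.3 CPM, beside the median type's 66.4 CPM, and did not pass (1.37, SE 0.55, adjusted p = 0.224). Gaba15 held no Cdh13 molecule in 11 cells, which allows up to 27.4 CPM. Among excitatory types, Glut9 (Glut_Reln_Npff) had the most, 197.1 CPM, and Glut12 (Glut_Qrfpr) was lower than the others (-2.35, SE 0.67, adjusted p = 0.0335), with 3 molecules in 35 cells. Within the inhibitory class, Cdh13 therefore ran from 0 to 381.1 CPM by type.

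Pcdh7, a delta-1 protocadherin, was higher in 6 types. It reached 578.6 CPM (457 to 722) in Gaba15, GABA_Crabp1_Spp1, and 464.8 CPM (406.3 to 529.4) in Gaba14, GABA_Crabp1, beside a median of 128.2 CPM. The log2 fold changes were 2.60 (SE 0.47) and 2.05 (SE 0.23). Gaba15 held 11 cells and no animal set held at least 5 of them, so its level has no range over sets. Gaba12, GABA_Cplx1_Sorcs3, stood at 363.7 CPM (1.51, SE 0.24). The 3 types with Cck in their names were the high excitatory ones, Glut1 at 311.5 CPM (1.44), Glut2 at 343.9 CPM (1.48) and Glut3 at 366.9 CPM (1.64). Pcdh7 was lower in Gaba8 (66.5 CPM, -1.20) and in Gaba4 (44.1 CPM, -2.99), where its 6 molecules were all from wild-type cells. Gaba14 was at 464.4 CPM in wild-type cells and 465.05 CPM in vGat cells, while Glut3 was at 428.6 CPM in wild type and 220 CPM in the vGlut2 line.

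Pcdh8 was higher in the galanin types Gaba2 (126.6 CPM, log2 fold change 1.95, SE 0.32) and Gaba3 (120 CPM, 1.81, SE 0.33) and in Gaba10 (117.6 CPM, 1.71, SE 0.38), named GABA_Cplx1_Adamts5, beside a median of 31.1 CPM. Over the 7 sets with at least 5 Gaba3 cells it ran from 62.9 to 240 CPM. Cdh8 was higher in Gaba2 as well (244.99 CPM, 1.40, SE 0.21), in Gaba9 (225.4 CPM, 0.91, SE 0.24) and in Gaba3 (185.8 CPM, 0.78, SE 0.23). Its level in Gaba9 was 111.98 CPM in wild-type cells and 255.7 CPM in vGat cells, and with wild-type cells alone the log2 fold change there was 0.03.

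Single types were also called for 6 other members. Pcdh19 was higher in Gaba7 (1.36) and Gaba3 (1.26), Pcdh10 in Gaba4 (1.63), Pcdh9 in Gaba13 (1.07), Pcdh17 in Glut2 (0.99) and Pcdha5 in Gaba9 (0.85). Pcdh19 was not tested in excitatory types, although its highest type was Glut5, at 156.7 CPM beside 138.1 CPM in Gaba7. Gaba4 held only 11 cells. Cdh2 was higher in Gaba8 (0.94) and lower in Gaba9 (-0.85), both of them Calb2 types. Pcdhgb4 was called in no type. Among 8 alternative settings, the call of Cdh2 in Gaba9 was lost in 5, and those of Pcdh7 in Gaba8, Cdh8 in Gaba3 and Pcdh9 in Gaba13 in 4 each.

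Low-count members with a concentrated pattern could not be tested by type or did not pass. Pcdh15 was at 133.5 CPM in Gaba15 (11 cells) and 83.9 CPM in Gaba14, the same pair that led for Pcdh7, beside a median of 24.6 CPM. Cdh12, a type II cadherin, was at 53.2 CPM in Gaba12, from 31 molecules, beside a median of 5.26 CPM. Pcdh20 was at 54.5 CPM in Glut12 and 49.6 CPM in Glut11, but the Glut12 sets ran from 15.8 to 195.5 CPM. Cdh22 was at 85.3 CPM in Glut1 and 56.3 CPM in Glut2, beside a median of 12.5 CPM, and missed the threshold in both (log2 fold change 1.77, adjusted p = 0.0656, and 1.69, adjusted p = 0.0849).

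**Figure D4:**
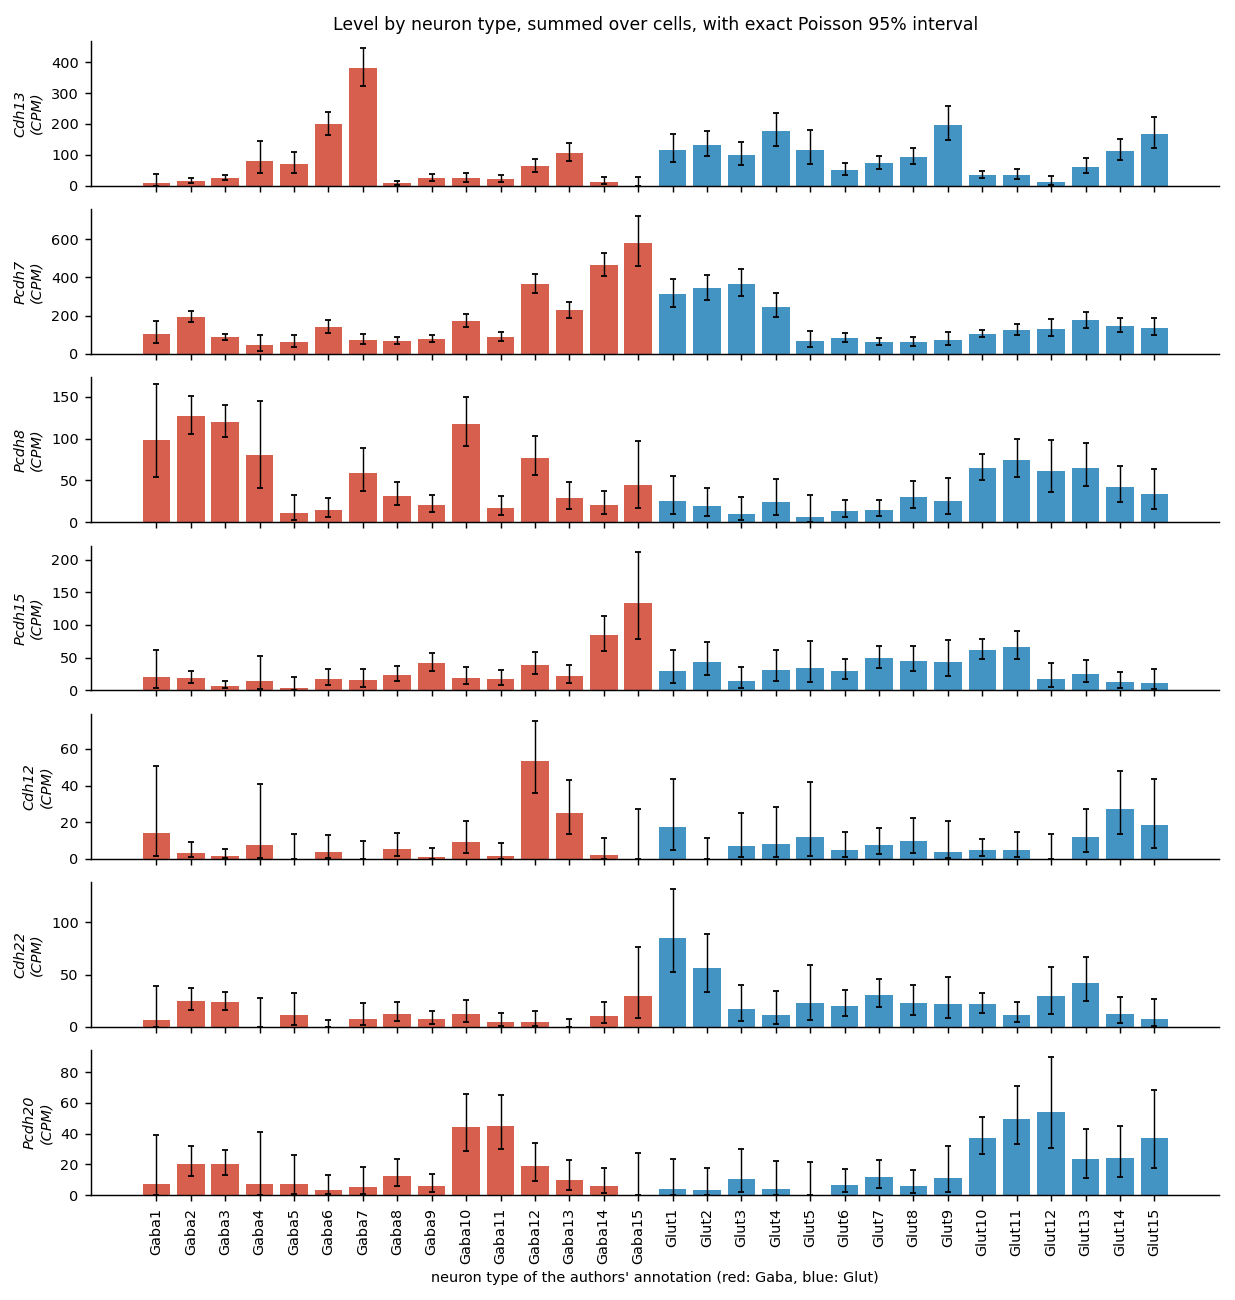
CPM by neuron type for the 7 genes whose highest type was at least 50 CPM and at least 4 times the median type (Cdh13, Pcdh7, Pcdh8, Pcdh15, Cdh12, Cdh22 and Pcdh20), with red bars for types labelled Gaba and blue bars for Glut. Bars start at 0 and whiskers are exact Poisson 95% intervals of the summed counts, which cover counting error only. Cdh13 peaks in Gaba7 at 381.1 CPM and Pcdh7 in Gaba15 at 578.6 CPM.

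The levels by type were alike in wild-type and reporter cells for some genes and not for others. Across 27 types seen in wild type and in reporter cells, which share type labels but no mice or runs, Spearman's rho between the levels was 0.76 for Cdh13, 0.76 for Pcdh7 and 0.68 for Pcdh19. It was 0.08 for Pcdh9 and 0.30 for Pcdhgb4. These are descriptions over types of unequal cell number. With wild-type cells alone, 8 pairs were higher and 2 lower, 3.64% and 0.909% of the members' pairs beside 1.54% and 0.289% of all pairs. With reporter cells alone they were 23 and 9, 11% and 4.31% beside 2.48% and 0.782%.

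Of the members tested, Pcdh9 had the largest change between each reporter line and wild type of the same class. This comparison was chosen after the data were seen, and line cannot be told apart from capture run in it. In inhibitory cells, Pcdh9 (chromosome 14, 93013700 to 93892834, GRCm38) was at 179.2, 226.8 and 230 CPM in the 17-, 18- and 24-day vGat sets. In the 7 wild-type sets it ran from 344.96 to 609.1 CPM with a median of 505.9, and every vGat set was below every wild-type set. The log2 fold change was -1.29 (SE 0.18, adjusted p = 9.48e-06). In excitatory cells it was at 80.9, 47.8, 80.3 and 313.1 CPM in the 23-, 24-, 25- and 26-day vGlut2 sets, and from 395.3 to 651 CPM (median 543.7) in 9 wild-type sets, again without overlap. The log2 fold change was -2.25 (SE 0.34, adjusted p = 0.000114), and -2.91 without the 26-day set.

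Some markers of other cell types were also lower in the reporter lines than in wild type. The endothelial gene tested passed in neither line, and 2 of 5 neuron markers were higher in each. Besides, 1 neuron marker was lower in the vGlut2 line and 1 of 4 inhibitory markers was lower in the vGat line. All 10 oligodendrocyte genes were lower in the vGat line than in wild-type inhibitory cells (median log2 fold change -3.35), and 3 of 10 were lower in the vGlut2 line than in wild-type excitatory cells (median -1.94). In the vGat line, 3 of 4 astrocyte genes (median -4.89), the precursor gene Gpr17 (-3.21) and the excitatory marker tested (-5.06) were lower as well, while the single astrocyte and precursor genes tested in the vGlut2 line did not pass and its excitatory marker was higher (1.44). Without the 26-day set, all 10 oligodendrocyte genes (median -5.08), 1 of 3 astrocyte genes and the precursor gene (-3.30) were lower in the vGlut2 line. The 26-day vGlut2 set, at 39988 CPM of this list, also had the highest Pcdh9 of its line. Within the wild type, 10 excitatory cells without any molecule of the list held 5 Pcdh9 molecules, 61.2 CPM (counting interval 19.9 to 142.9), beside 561.5 CPM in the other excitatory cells. Of the wild-type inhibitory cells, 2 were free of the list and held 3 molecules. In the vGat line the level was 194.3 CPM (173.2 to 217.3) in the cells free of the list and 220 CPM (206.01 to 234.8) in the others. In the vGlut2 line it was 76.3 CPM (62.4 to 92.3) in 200 free cells and 102.4 CPM (85.5 to 121.8) in the others. The part of RNA from these other cells in the Pcdh9 difference was not tested. Cdh19, a type II cadherin best known from Schwann cell precursors, was also at a lower level in both reporter lines than in wild type. It was at 12.4 and 16.6 CPM in wild-type inhibitory and excitatory cells and at 1.40 and 2.67 CPM in the vGat and vGlut2 lines. The values of the lines rest on 8 and 7 molecules, and the difference was not tested. No cell free of the list held a Cdh19 molecule. In wild type these were 2 inhibitory and 10 excitatory cells, which allows up to 478.8 and 45.2 CPM.

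**Figure D5:**
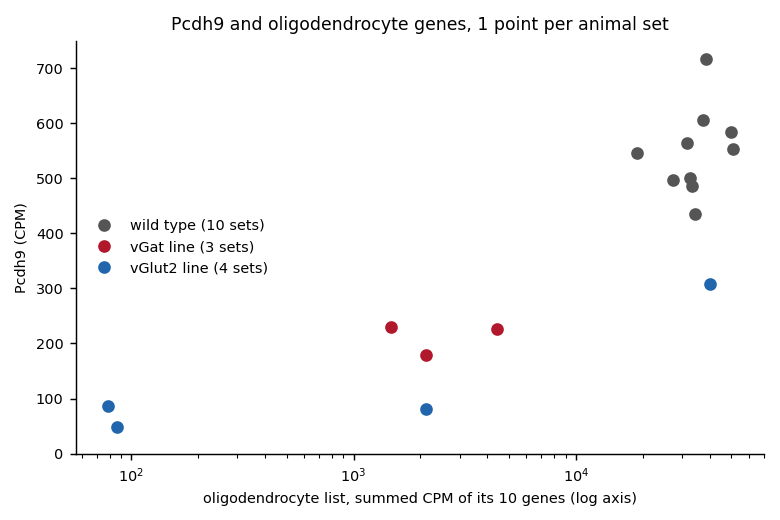
Pcdh9 in CPM (linear axis) against the summed CPM of the 10 oligodendrocyte genes (log axis), 1 point per animal set over all its cells. The 10 wild-type sets lie at the upper right, the 3 vGat sets between 179.2 and 230 CPM of Pcdh9, and the 26-day vGlut2 set at 307.99 CPM lies apart from the other vGlut2 sets.

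Of the 16 members tested in inhibitory cells, Cdh13 (log2 fold change 0.91, SE 0.26, adjusted p = 0.0122) and Pcdhac2 (0.78, SE 0.26, adjusted p = 0.0361) were higher in the vGat line than in wild type. Cdh11, a type II cadherin first known from bone, was lower beside Pcdh9 (-0.83, SE 0.29, adjusted p = 0.0432). Over all 7687 genes, 8.39% were higher and 12.9% lower, so the 2 and 2 of 16 (12.5% each way) are near the background. Cdh13 was at 51.4, 74.3 and 69.7 CPM in vGat inhibitory cells, all above the wild-type range of 14.2 to 45.2 CPM. Pcdhac2 was at 45.7, 61.3 and 50.7 CPM, above the wild-type range of 7.32 to 40.5 CPM. Cdh11 was at 18.3, 24.9 and 25.0 CPM, within the wild-type range of 17.0 to 60.1 CPM, and it too passed the filter only through the wild-type sets. The Cdh13 call was lost in 2 of 14 settings, without the 18- or the 24-day vGat set. The Pcdhac2 call was lost in 9, namely under DESeq2, without any one vGat set, and without the 18-, 20-, 21- or 26-day wild-type set or the 22-day one labelled F. The Cdh11 call was lost in 8, namely with no filter, without any one vGat set, and without the 18-, 19- or 26-day wild-type set or the 22-day one labelled F.

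In excitatory cells, none of 16 members was higher in the vGlut2 line and 3 were lower, beside 5.08% higher and 10.4% lower of 7163 genes. Beside Pcdh9, these were Pcdh7 and Pcdh20. Pcdh7 was at 135.5, 66.98, 105.8 and 55.2 CPM, against 120 to 281.9 CPM (median 161.8) in wild type (log2 fold change -0.78, SE 0.24, adjusted p = 0.0318), and its ranges overlapped. Pcdh20 was at 10.9, 0, 15.8 and 0 CPM, against 15.9 to 61.03 CPM (median 30.9) in wild type (-1.30, SE 0.44, adjusted p = 0.0492). Pcdh20 passed the filter on low counts only through the wild-type sets, where it is high, so its call is a description. The 2 vGlut2 sets at 0 were the small ones of 24 and 26 days. At an unadjusted p under 0.05, 2 members were higher, Cdh8 (0.51) and Cdh13 (0.54), and 5 lower, the called ones with Cdh2 (-0.50) and Pcdha5 (-0.48), beside 11.8% and 16.8% of all genes. DESeq2 called none higher and the same 3 lower. Of 17 settings, the Pcdh20 call was lost in 11, among them without any one vGlut2 set. The Pcdh7 call was lost in 4, without the 24-, 25- or 26-day vGlut2 set or the 26-day wild-type set. Without the 26-day vGlut2 set, Pcdh7 had an adjusted p of 0.0579 and Pcdh20 of 0.0606, while Cdh8 was higher (0.69, adjusted p = 0.0296, edgeR).

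Choice among the clustered genes was looked at cell by cell, with Pcdha5 and Pcdhgb4 left out because they took most molecules of their clusters. The other alpha and gamma genes share exons too, so a molecule may be counted for another gene of its cluster. After thinning to 3000 molecules, 23.6% of all cells held molecules of 2 or more of the other 56 clustered genes and 644 cells held none. The share with 2 or more was 12.3% in wild-type inhibitory, 10.5% in wild-type excitatory, 38.2% in vGat inhibitory and 23.8% in vGlut2 excitatory cells. Over sets it ran from 6.67% to 16.7% (7 sets), from 0 to 25.0% (9 sets), from 33.3% to 40.4% (3 sets) and from 16.7% to 47.4% (4 sets). The vGat sets lay above every wild-type set. The difference between lines was not tested, line and run cannot be told apart, and at this depth the number of genes that a cell expresses cannot be read from the number seen. Unthinned, the median was 2 of the 56 genes per cell and the largest number 14.

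Age within the wild type was examined as a slope per day over the sets labelled male, 6 with inhibitory cells from 18 to 27 days and 8 with excitatory cells from 18 to 28 days. None of 15 members tested in inhibitory cells and none of 16 in excitatory cells passed with edgeR, and none passed with DESeq2. None had an unadjusted p under 0.05 in either class, with smallest values of 0.134 for Pcdh17 and 0.0525 for Pcdh8. Over all genes, 0.0315% rose and 0.0157% fell of 6352 in inhibitory cells, and 0.0135% rose and 0.0135% fell of 7424 in excitatory cells. The slopes of Pcdh8 were 0.06 log2 units per day (SE 0.05) in inhibitory and -0.10 (SE 0.05) in excitatory cells.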

How the data were processed

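Values as deposited by the authors are counts of unique molecules (UMI) for each gene in each cell, without normalization. Cell Ranger and the build mm10 are named, without versions, per the submitters' processing notes, and the sources used here give no further step. Summed genes matched the cell totals in the labels for all 1545 cells, every cell was kept, and no doublet caller was run. Counts were added up per animal set (line, sex label, age label), and per class or type within sets. CPM are sums scaled to 1000000, with exact Poisson 95% intervals, which cover counting error only, as do the exact binomial intervals.

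Tests used edgeR 4.0.16 in R 4.3.3 (quasi-likelihood, TMM, filterByExpr, Benjamini-Hochberg at 0.05 over all genes), with the set as a block for classes and types, whose arms share sets. Adjusted p-values are of this kind. The test of whether class effects differ between reporter lines and wild type had no block, although the wild-type classes share sets. DESeq2 1.42.0 was an alternative. Class sums had at least 10 cells and type sums at least 2. The low-count filter was applied by design, a form chosen after fits by group had been seen, and the form by group is among the alternatives. Members and lists were chosen with earlier results of these data known. Set values are given for members called between lines or wild-type classes, at most 10 per direction, and type levels for those whose highest type reached 50 CPM and 4 times the median type. Comparisons of each line with wild type, the splits by oligodendrocyte molecules and the counts of clustered genes per set were added after the data were seen. Gene positions and promoters are from RefSeq (GRCm38.p6) and exons from GENCODE M21.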

Additional observations from a re-analysis of the deposited data

Results flagged for a closer look

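In groups of 4 to 10 animal sets, 24 groups of values behind a call were checked for a set far from the others, of which chance flags about 1 in 20, and 3 were found, all in the vGlut2 line. The vGat line, with 3 sets, was too small for this check. In excitatory cells, Pcdh9 stood at 313.1 CPM in the 26-day set, beside 47.8 to 80.9 CPM in the other 3 sets. Oligodendrocyte genes summed to 39988 CPM in that set and to at most 2125 CPM in the others, and their part was not tested. Cdh3 stood at 9.57 CPM in the 24-day set, which is 1 molecule, beside 0 to 1.02 CPM. Pcdh19 stood at 66.98 CPM in the same set, from 7 molecules, beside 37.3 to 41.3 CPM.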

How the results depend on the processing

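Of the single calls recomputed under other settings, 25.4% were lost and 0 changed direction, and the causes were not tested. The counts that follow are given here without the share of all genes called in the same fit. Between the reporter lines, DESeq2 gave 5 higher and 1 lower, age as a covariate 2 and 0, and leaving out each set 2 to 11 higher and 0 to 4 lower. Between wild-type classes, the lower count was 0 under DESeq2, both were 0 with at least 20 cells of each class per set, and leaving out each set gave 0 to 1 each way. The animal set, and no replicate number, served as the block: with no replicate block, classes gave 1 higher and 0 lower, and types 19 and 2. For types, RLE size factors gave 2 lower, no filter 48 higher (of 2610 pairs), wild-type cells only 8 and 2, and reporter cells only 9 lower. The difference between reporter lines and wild type gave 0 to 1 higher without each set. For the vGat line against wild type, DESeq2 gave 1 higher, no filter 9, and leaving out each set 0 to 2 higher and 1 to 2 lower. For the vGlut2 line these were 3 higher with no filter, and 0 to 1 higher and 1 to 3 lower. The call of Pcdh9 held in all 14 settings of the vGat comparison (-1.38 to -1.18) and all 17 of the vGlut2 comparison (-2.91 to -1.99). With the low-count filter by group, chosen after seeing the data as an alternative, counts were 8 and 2 between lines, 1 and 1 between classes and 23 and 4 for types. Small vGlut2 sets limit low genes: at 24 days, 1 molecule is 9.57 CPM.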
